A study of Mus musculus with 27 samples.

Results

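The genes described here are the 10 members of the oncofetal Lin28 and let-7 axis: the RNA-binding protein genes Lin28a, Lin28b, Trim71, Igf2bp1, Igf2bp2 and Igf2bp3, the chromatin protein genes Hmga1 and Hmga2, and the transcription factor genes Myc and Mycn. They were picked by symbol as known genes of this axis, by no threshold on their values, and all 10 were found among the 23604 genes of the expression table and among the genes of the single-cell tables. The table covered 19 RNA-seq libraries of mouse pluripotent stem cells, all labelled as wild type. Naive mouse embryonic stem cells (mESCs, 2 libraries) were kept in N2B27 medium with LIF and 2i, a pair of inhibitors of MEK and GSK3. Epiblast-like cells (EpiLCs, 2 libraries) were induced from mESCs with Activin A, bFGF and KSR, a serum replacement. Epiblast stem cells (EpiSCs, 2 libraries) grew on mitotically inactivated mouse fibroblast feeders with Activin A, bFGF, KSR and XAV939, a tankyrase inhibitor that lowers Wnt/β-catenin activity. Epiblastoids (days 2, 3 and 4, 1 library each) were mESCs embedded in Matrigel under the EpiLC condition. Formative pluripotent stem cells (fPSCs) were derived from Epiblastoids and kept in Matrigel with Activin A, bFGF and XAV939. They were sequenced at passage 1 (P1, 1 library) and as established cultures (7 libraries: P10, P20 and P30, CMT at P11, 46C at P24, BVSC at P14 and ROSAmTmG at P12). By the study's methods, P10, P20 and P30 are serial passages of CMT as well, so the 7 libraries stand for 4 lines. The paper describes 46C as a Sox1-GFP reporter line, BVSC as a Blimp1 and Stella reporter line, and ROSAmTmG cells as tdTomato-positive. Another 2 libraries were P10 lines derived directly from E5.5 and E6.5 epiblasts.

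LIN28A and LIN28B bind precursors of the let-7 microRNAs and block their maturation. Mature let-7 in turn represses many transcripts through matches to its seed, among them those of Lin28a, Lin28b, Hmga2, Igf2bp1 and Trim71, so that low let-7 and high levels of these RNAs go together in early embryonic and many tumour cells. HMGA proteins bend AT-rich DNA, IGF2BP proteins bind and stabilise mRNAs, TRIM71 (LIN41) is a let-7 target that represses mRNAs in stem cells, and MYC and MYCN drive growth genes as dimers with MAX. In pluripotent cells, Lin28a is known to increase as cells leave the naive state.

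The let-7 seed had matches in 8 of the 10 genes, not in Myc or Mycn, so the mature sequences are shown first. They are from RefSeq, with bases 2 to 8 (the seed) in capitals.
mmu-let-7a-5p: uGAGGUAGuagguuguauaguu
mmu-let-7e-5p: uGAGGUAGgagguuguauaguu
mmu-let-7g-5p: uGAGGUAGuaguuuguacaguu
mmu-miR-98-5p: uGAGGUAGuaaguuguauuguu
mmu-miR-202-3p: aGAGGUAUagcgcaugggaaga
Of the 10 family members, 9 (let-7a to let-7g, let-7i and miR-98) shared the seed GAGGUAG, and miR-202-3p carried a different last seed base. The letters that pair with the shared seed are CTACCTC, and their occurrences on the transcript strand were counted in the longest annotated 3′ UTR of each gene (build NCBIM37).

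Matches to CTACCTC stood in 8 of the 10 genes. Hmga2 held 4 matches in 3014 nt, Lin28b 4 in 4445 nt and Igf2bp1 4 in 6337 nt. Lin28a (2775 nt) and Trim71 (1370 nt) each held 2, while Hmga1, Igf2bp2 and Igf2bp3 held 1 each. Myc (466 nt) and Mycn (910 nt) held none, which says only that these letters were not in their annotated UTRs. Across the 20007 protein-coding genes with an annotated 3′ UTR, 8.8% had at least 1 match, 1.01% at least 2 and 0.045% at least 4. UTR length is part of this: the median length was 891 nt, and among genes with UTRs of 2000 nt or more, 20.0% had a match against 5 of 5 such members. Per kilobase, the members together held 0.779 matches and all genes 0.0763. Many of these genes are textbook let-7 targets, so the matches describe the set and are not independent evidence.

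The first match of each gene with matches, or the second for Igf2bp1, is shown in a window of 30 bases. The windows run 5′ to 3′ on the transcript strand, with the seed match in capitals. They are the stretches through which the family would act on these genes.
Lin28a: tgcacagcctgttgaaCTACCTCatttttg
Lin28b: cacccgggcgggaagtCTACCTCatgcaag
Trim71: caacattgcctaagtcCTACCTCagcttaa
Hmga1: ctcctctgttcacaaaCTACCTCtggacgg
Hmga2: cgccgacattcaatttCTACCTCagcatca
Igf2bp1: ccagcagtgctattaaCTACCTCagcccca
Igf2bp2: aacacacaaataaaagCTACCTCaggtgtt
Igf2bp3: gtgcatttttactcaaCTACCTCaggtatt
In NCBIM37 the windows lie in 3′ UTR exons at chr4:133561098-133561127 (minus strand, Lin28a), chr10:45100822-45100851 (minus, Lin28b), chr9:114421584-114421613 (minus, Trim71) and chr17:27700221-27700250 (plus, Hmga1). Those of the remaining genes lie at chr10:119801274-119801303 (minus, Hmga2), chr11:95820665-95820694 (minus, Igf2bp1), chr16:22059540-22059569 (minus, Igf2bp2) and chr6:49036780-49036809 (minus, Igf2bp3). In Hmga2 and Lin28b the first match began within 58 and 36 nt of the start of the UTR, and the last at 2591 and 3998 nt. The mature microRNAs themselves were not measured here. The 13 table entries named for let-7 family precursors reached at most 1.37 FPKM, and 5 were listed at 0 in every library.

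**Figure D1:**
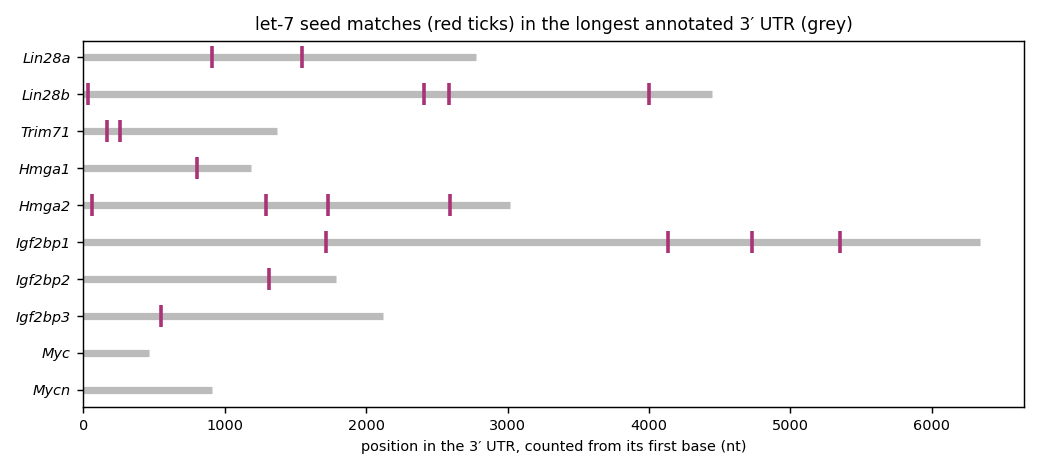
Positions of CTACCTC, the match to the let-7 seed, along the annotated 3′ UTR of each gene (x axis, nt from the start of the UTR; horizontal lines, UTRs; marks, matches). Hmga2, Lin28b and Igf2bp1 hold 4 matches each, spread over their UTRs, and Myc and Mycn hold none.

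Expression was given as FPKM, read fragments normalised to transcript length and library size, which allows levels to be compared between genes. The table holds no read counts, and the depth of each library is unknown. Core pluripotency genes (Pou5f1, Sox2 and Nanog) summed to at least 311.8 FPKM in every group. Naive genes summed to 844–1079 FPKM in mESCs and at most 30.4 FPKM elsewhere, and formative genes such as Fgf5 and Otx2 to 562.5–801.5 FPKM in the 7 fPSC libraries against 26.8–31.2 FPKM in mESCs and 182–198 FPKM in EpiSCs. The EpiSC libraries stood apart in 1 respect that touches the results below. The 19 fibroblast genes summed to 735.5 and 885.0 FPKM in them, with 16 of the 19 at 1 FPKM or more, against 4.56–28.5 FPKM in the mESC and EpiLC libraries and 8.79–15.1 FPKM in the fPSC libraries. In EpiSCs Tagln reached 276 and 322 FPKM and Col1a1 111 and 153 FPKM, while Fap was at most 0.0032 FPKM and Lum at most 0.59 FPKM. These cells had been grown on feeders, and the part of the feeders in the EpiSC values of the 10 genes was not tested. The 7 fPSC libraries were deposited in 2 batches with different library protocols. Batch 1 holds P10, P20 and P30 together with all mESC, EpiLC, EpiSC and Epiblastoid libraries, and batch 2 holds CMT P11, 46C, BVSC and ROSAmTmG. For the 10 genes, each comparison with fPSCs is therefore given for all 7 libraries and within batches. The other gene lists below are compared with mESCs, EpiLCs and EpiSCs over all 7 fPSC libraries only.

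**Figure D2:**
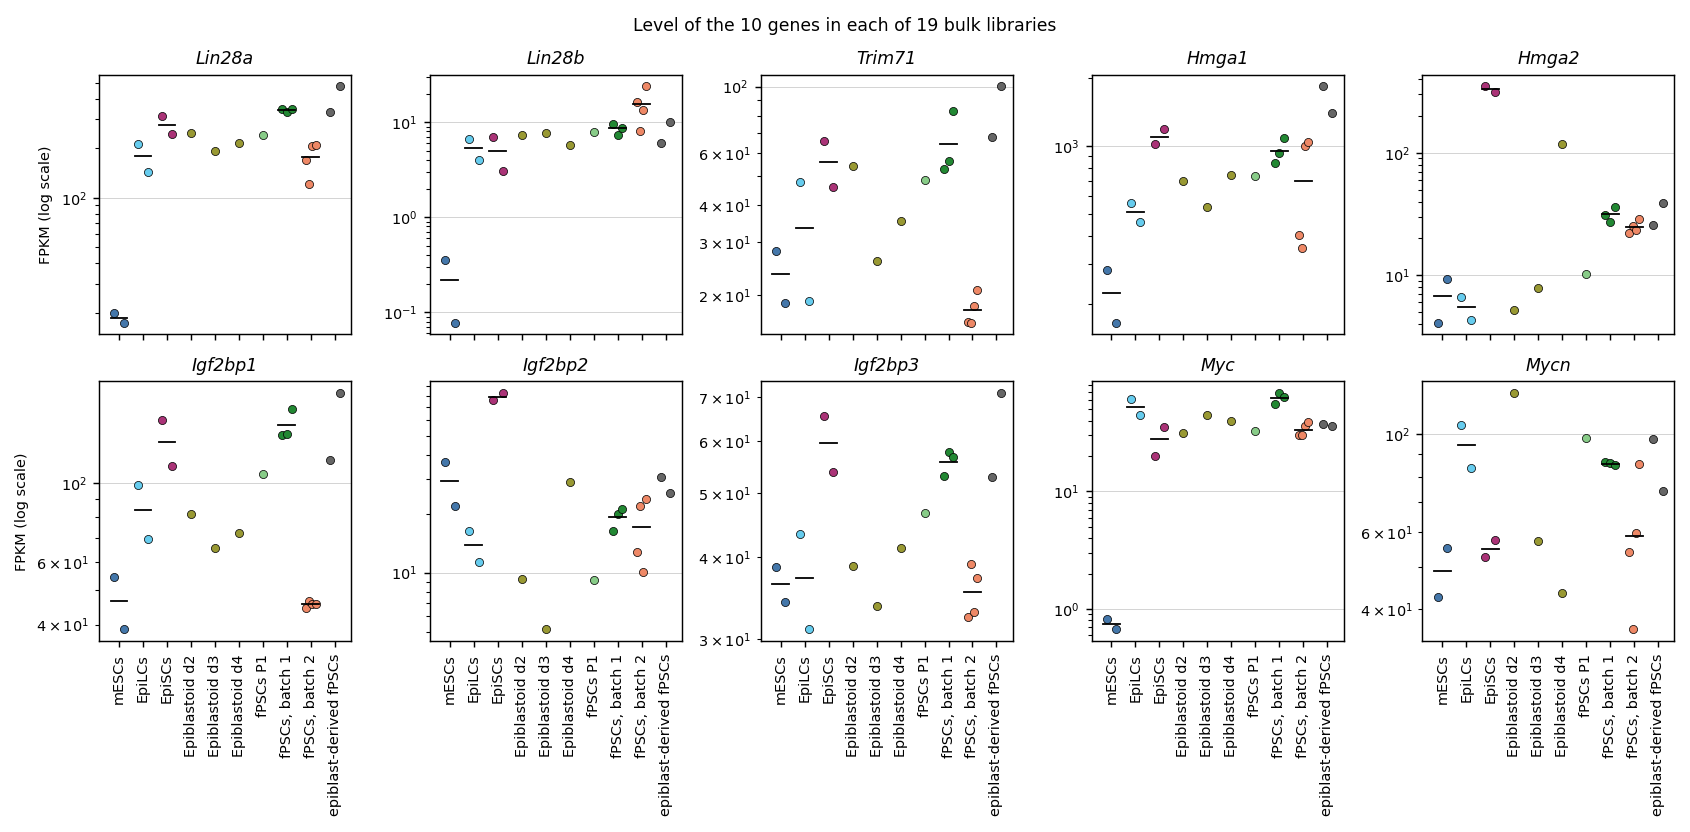
FPKM (log axis) of each of the 10 genes in the 19 libraries, 1 panel a gene, with points for libraries and horizontal lines for the means of mESCs, EpiLCs, EpiSCs and each fPSC batch. Lin28a, Lin28b and Myc lie far lower in the 2 mESC libraries than in any other library, and Hmga2 is above 300 FPKM only in the 2 EpiSC libraries.

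Lin28a, which encodes the cytoplasmic let-7 blocker, was low in naive cells and high in every other state. It stood at 19.8 and 17.4 FPKM in the mESC libraries, 213.5 and 143.3 FPKM in EpiLCs, and 312.9 and 244.0 FPKM in EpiSCs. In the 7 fPSC libraries it ranged from 121.2 to 348.2 FPKM with a mean of 247.7 ± 92.8 FPKM (SD, n = 7), so that no library of the other groups overlapped with mESCs. The log2 fold change against mESCs was 3.17 ± 0.45 (SE) in EpiLCs, 3.83 ± 0.45 in EpiSCs and 3.57 ± 0.36 in fPSCs, with adjusted p = 1.6e-04, 1.7e-05 and 4.2e-06 (limma over all genes, Benjamini-Hochberg). These log2 fold changes, like all that follow, are of FPKM + 1, which understates the change of low genes. Over all 7 libraries, fPSCs did not pass against EpiSCs or EpiLCs: the log2 fold change was -0.25 against EpiSCs (95% interval -1.04 to 0.53, adjusted p = 0.614) and 0.40 against EpiLCs (adjusted p = 0.531). Within batches this changed, since the batches differ in Lin28a: batch 1 was higher than EpiLCs (0.96, adjusted p = 0.00632) and batch 2 lower than EpiSCs (-0.67, adjusted p = 0.0445). All comparisons with mESCs share the same 2 mESC libraries and are not independent of each other.

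Lin28b, its paralogue, which blocks let-7 processing in part from the nucleus, was likewise lowest in mESCs, at much lower levels. It was at 0.36 and 0.078 FPKM in mESCs, near the bottom of the measured range, 6.65 and 3.99 FPKM in EpiLCs, and 7.003 and 3.04 FPKM in EpiSCs. The fPSC libraries held 7.38 to 23.8 FPKM (mean 12.5 ± 5.94, SD, n = 7), all above every EpiLC and EpiSC library. It was higher than in mESCs by 2.35 ± 0.49 on the log2 scale in EpiLCs (adjusted p = 0.00288), 2.23 ± 0.49 in EpiSCs (adjusted p = 0.00247) and 3.37 ± 0.40 in fPSCs (adjusted p = 1.61e-05). Against EpiSCs the fPSC value was higher by 1.14 ± 0.40 (adjusted p = 0.0396). That call rested on batch 2: with the 3 batch 1 passages of CMT alone the log2 fold change was 0.75 with adjusted p = 0.0837, and with the 4 batch 2 libraries alone 1.44 with adjusted p = 0.0125. Against EpiLCs, fPSCs were at 1.02 ± 0.40 on the log2 scale and did not pass (adjusted p = 0.108). Lin28a exceeded Lin28b in each of the 19 libraries.

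Trim71, whose product LIN41 represses differentiation mRNAs and is itself a let-7 target, did not follow the Lin28 genes. It was already at 28.1 and 18.8 FPKM in mESCs. EpiLCs held 48.0 and 19.1 FPKM and EpiSCs 65.9 and 46.03 FPKM. The fPSC libraries fell into a lower part of 16.2 to 20.7 FPKM (the 4 libraries of batch 2) and a higher part of 53.1 to 83.2 FPKM (the 3 of batch 1). No comparison between groups passed for Trim71 over all 7 libraries, although EpiSCs passed against mESCs where fPSCs were left out of the fit (1.23, adjusted p = 0.0382). With batch 1 alone, fPSCs exceeded mESCs by 1.41 on the log2 scale (adjusted p = 0.00917), whereas batch 2 alone gave -0.35 (adjusted p = 0.389), so its order between fPSCs and mESCs changed with the batch.

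The 2 Hmga genes, which encode architectural chromatin proteins, differed from each other. Hmga1 was the most abundant of the 10 genes in all 19 libraries. It rose from 281.2 and 164.9 FPKM in mESCs to 1019 and 1187 FPKM in EpiSCs (log2 fold change 2.35 ± 0.53, adjusted p = 0.00302) and to 351.9–1084 FPKM in fPSC libraries (1.78 ± 0.43, adjusted p = 0.00443), without overlap with mESCs. EpiLCs held 558.2 and 462.2 FPKM, which did not pass against mESCs (1.23 ± 0.53, adjusted p = 0.101). Without the second mESC library the fPSC difference fell to 1.40 (adjusted p = 0.0922). Reads of Hmga1 may be shared with copies of the gene elsewhere in the genome, so its values are uncertain.

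Hmga2 set the EpiSC libraries apart. It stood at 4.10 and 9.32 FPKM in mESCs, 6.66 and 4.28 FPKM in EpiLCs, 22.1 to 36.1 FPKM in the 7 fPSC libraries and 349.7 and 315.8 FPKM in EpiSCs. All fPSC libraries lay above all mESC and EpiLC libraries and below both EpiSC libraries. The log2 fold change was 5.52 ± 0.31 in EpiSCs against mESCs (49.6-fold in mean FPKM, adjusted p = 1.78e-08) and 1.97 ± 0.25 in fPSCs against mESCs (4.14-fold, adjusted p = 3.41e-05). Directly compared, fPSCs were 2.16 ± 0.25 above EpiLCs (adjusted p = 5.84e-05) and lower than EpiSCs (log2 fold change -3.55 ± 0.25, adjusted p = 2.28e-07). The 12.0-fold gap between EpiSCs and fPSCs stood beside the higher fibroblast gene sum of the EpiSC libraries, and the part of the feeders in it was not tested. In bulk samples, fewer cells of a type and less RNA per cell cannot be told apart. Within batch 1 the differences were 2.16 against mESCs, 2.35 against EpiLCs and -3.36 against EpiSCs, and within batch 2 they were 1.83, 2.02 and -3.69, so the intermediate level did not rest on either batch.

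The Igf2bp genes, whose products bind and stabilise mRNAs such as Igf2 and Myc, were present in all states. Igf2bp1 stood at 54.3 and 38.7 FPKM in mESCs, 98.4 and 69.7 FPKM in EpiLCs and 149.7 and 111.3 FPKM in EpiSCs. Igf2bp3 stood at 38.6 and 34.2, 43.3 and 31.0, and 65.5 and 54.0 FPKM in the same order. Both EpiSC libraries lay above both mESC libraries for each gene, but neither passed the test (Igf2bp1 1.47 ± 0.65, adjusted p = 0.0773; Igf2bp3 0.70 ± 0.30, adjusted p = 0.0749). Both passed where the fPSC libraries were left out of the fit (adjusted p = 0.00274 and 0.0326). In fPSCs Igf2bp1 averaged 145.2 ± 14.2 FPKM in batch 1 (n = 3) and 45.6 ± 0.74 FPKM in batch 2 (n = 4), and Igf2bp3 55.9 ± 2.47 and 35.4 ± 3.20 FPKM. Against mESCs, the batch 1 libraries passed for both genes (1.64 and 0.61 on the log2 scale) and the batch 2 libraries were at -0.01 and -0.04.

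Igf2bp2 was, like Hmga2, highest in EpiSCs. It was at 36.7 and 21.8 FPKM in mESCs, 16.3 and 11.3 FPKM in EpiLCs, 75.6 and 82.2 FPKM in EpiSCs and 10.1 to 23.6 FPKM in the fPSC libraries. The EpiSC level was higher than in mESCs by 1.44 ± 0.37 on the log2 scale (adjusted p = 0.00635, or 0.0791 without the second mESC library) and fPSCs were lower than EpiSCs (log2 fold change -2.13 ± 0.30, 4.40-fold, adjusted p = 1.3e-04). This difference held within batch 1 (-1.998) and within batch 2 (-2.22). Against mESCs, both EpiLCs (-1.01 ± 0.37, adjusted p = 0.0565) and fPSCs (-0.68 ± 0.30, adjusted p = 0.0809) had lower values that did not pass.

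Myc and Mycn, related growth regulators that share the partner MAX, differed in naive cells. Myc was at 0.83 and 0.67 FPKM in mESCs, against 42.6 and 55.1 FPKM for Mycn. In the other states Myc rose to 61.1 and 44.5 FPKM in EpiLCs, 20.1 and 35.8 FPKM in EpiSCs and 29.98 to 68.6 FPKM in fPSC libraries. Its log2 fold changes against mESCs were the largest among the 10 genes in EpiLCs (4.93 ± 0.41, adjusted p = 1.58e-06) and in fPSCs (4.68 ± 0.33, adjusted p = 1.31e-07), and it reached 3.99 ± 0.41 in EpiSCs (adjusted p = 5.21e-06). In mean FPKM the differences were 70.5-fold, 61.5-fold and 37.3-fold. Mycn reached 104.9 and 83.9 FPKM in EpiLCs, 52.5 and 57.4 FPKM in EpiSCs and 36.0 to 86.3 FPKM in fPSC libraries. No comparison passed for Mycn over all 7 libraries. In batch 1 alone, fPSCs exceeded mESCs in Mycn by 0.81 (adjusted p = 0.00209) and EpiSCs by 0.63 (adjusted p = 0.0136), and exceeded EpiSCs in Myc by 1.19 (adjusted p = 0.00444). The Mycn level was above that of Myc in all 19 libraries.

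**Figure D3:**
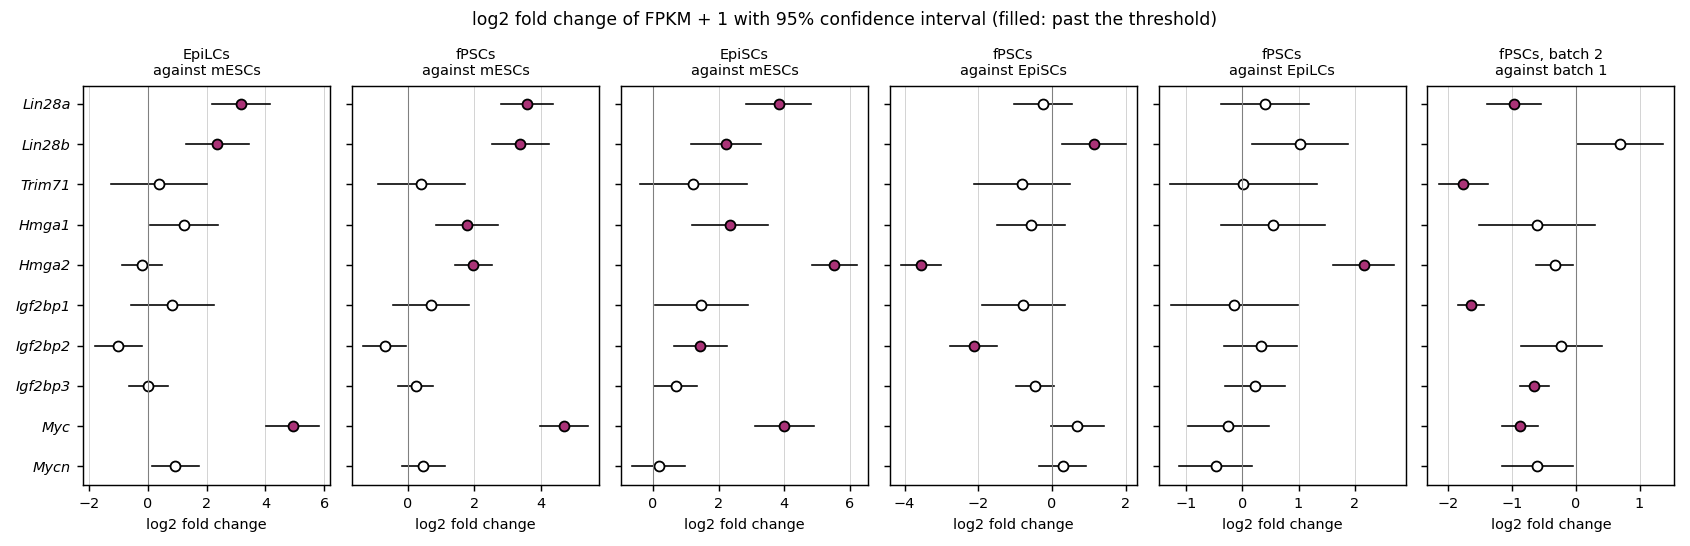
Log2 fold changes of FPKM + 1 with 95% confidence intervals (x axis) for the 10 genes, 1 panel for each of 6 comparisons, the last between the fPSC batches, filled where the gene passed the test. Lin28a, Lin28b and Myc pass in all 3 comparisons with mESCs, and Hmga2 lies at 5.52 in EpiSCs, 1.97 in fPSCs and -0.19 in EpiLCs.

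By count, a gene was called when its adjusted p was under 0.05 and its fold change at least 1.5. In EpiLCs 3 of the 10 genes were higher than in mESCs and 0 lower, where 12.2% of all 12513 genes tested were higher and 17.4% lower. In fPSCs 5 were higher and 0 lower (17.3% and 23.0% of all genes), and in EpiSCs 6 were higher and 0 lower (23.1% and 24.7%). Between fPSCs and EpiSCs, 1 was higher and 2 lower (13.3% and 19%), and between fPSCs and EpiLCs 1 was higher and 0 lower (5.66% and 8.15%). With the fPSC libraries left out of the fit, an alternative chosen after seeing the data, EpiLCs had 6 genes higher and 1 lower than mESCs (14.8% and 20.6% of 12185 genes), the added ones being Hmga1, Igf2bp1, Mycn and, lower, Igf2bp2. EpiSCs then had 9 higher (25.9%), all but Mycn. Nothing in the labels says that replicates came from separate cultures, so these p-values measure the spread between these libraries, which may be technical.

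Within batch 1, the fPSC libraries had 9 genes higher than mESCs (19.9% of all genes), all but Igf2bp2. They had 5 genes higher than EpiLCs (9.94%), namely Lin28a, Hmga1, Hmga2, Igf2bp1 and Igf2bp3. Against EpiSCs, Myc and Mycn were higher (10.1% of all genes were) and Hmga2 and Igf2bp2 lower (21.4%). With the batch 2 libraries in their place, the same 5 genes as over all 7 were higher than in mESCs (21.0% of all genes). Against EpiLCs, Lin28b and Hmga2 were higher (11.4%) and Igf2bp1 lower (9.79%), and against EpiSCs Lin28b was higher (24.3%) while 6 genes were lower (22.3%): Lin28a, Trim71, Hmga2 and the 3 Igf2bp genes. No mESC, EpiLC or EpiSC library belonged to batch 2, so in those comparisons batch and group cannot be told apart.

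The 7 fPSC libraries themselves differed by batch in several members. Batch 1 is 1 line at 3 passages and batch 2 is 4 lines, so the spread within batch 1 is between passages and the test does not compare independent lines. In a fit over these libraries alone, 5 of the 10 genes were lower in batch 2 and 0 higher, whereas over the 10930 genes tested 8.93% were lower and 20.8% higher and the median log2 fold change was 0.19. Trim71 fell from 53.1–83.2 FPKM to 16.2–20.7 FPKM (log2 fold change -1.77 ± 0.17, adjusted p = 2.44e-04) and Igf2bp1 from 136.5–161.6 FPKM to 44.6–46.4 FPKM (-1.65 ± 0.09, adjusted p = 5.46e-05). Lin28a (-0.98 ± 0.18), Myc (-0.88 ± 0.12) and Igf2bp3 (-0.65 ± 0.10) were also lower, with adjusted p = 0.00359, 0.00103 and 0.0013. Lin28b had the opposite sign and did not pass (0.69 ± 0.30, adjusted p = 0.0887). Hmga2 (-0.33, adjusted p = 0.0645) and Igf2bp2 (-0.23) did not pass. CMT, the only line in both batches, was at 16.2 FPKM for Trim71 and 44.6 FPKM for Igf2bp1 in its batch 2 library, like the other batch 2 libraries. The lines 46C, BVSC and ROSAmTmG occurred in batch 2 alone, so for them line and batch cannot be told apart, and CMT P11 was a thawed culture.

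Epiblastoids, grown without XAV939, already held Lin28a and Myc within the range of the fPSC libraries. Hmga2 and Igf2bp2 stood lower on days 2 and 3 than on day 4. The paper describes the day 4 cells as irregular colonies in which markers of the epithelial-to-mesenchymal transition were induced. It derived fPSCs by adding XAV939 to keep Epiblastoids from this collapse, so day 4 is not a stage of fPSC derivation. The Epiblastoid values come from single libraries without a replicate check. Lin28a stood at 247.8, 192.6 and 215.4 FPKM on days 2, 3 and 4, Lin28b at 7.27, 7.72 and 5.70 FPKM and Myc at 31.4, 45.1 and 39.6 FPKM. Hmga2 went from 5.19 FPKM on day 2 and 7.90 FPKM on day 3 to 119.2 FPKM on day 4, a 15.1-fold step, and Igf2bp2 from 9.30 and 5.13 to 29.0 FPKM, a 5.66-fold step. From day 3 to day 4 these 2 genes were the members past a log2 ratio of 1, with 0 lower, where 7.85% of 11357 genes were that much higher and 8.22% lower. From day 2 to day 3, 0 were higher and 2 lower, Trim71 (54.0 to 26.0 FPKM) and Mycn (123.9 to 57.1 FPKM), where 3.11% of 11095 genes were higher and 2.47% lower. Day 4 was also the library in which the 7 primitive streak and endoderm genes summed to 692.8 FPKM, against 52.6 FPKM on day 3, and their part in the Hmga2 and Igf2bp2 values was not tested. The fibroblast gene sum was 36.0 FPKM on day 4 and 23.5 FPKM on day 3.

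The first passage of fPSCs was close to the Epiblastoids of days 2 and 3 in Hmga2 (10.2 FPKM) and Igf2bp2 (9.20 FPKM). In Mycn (97.8 FPKM) it was close to the batch 1 libraries. The libraries of P10, P20 and P30 held 27.3 to 36.1 FPKM of Hmga2 and 331.1 to 348.2 FPKM of Lin28a. The lines derived from E5.5 and E6.5 epiblasts held all 10 genes as well. They stood at 331.4 and 476.5 FPKM for Lin28a, 6.02 and 10.1 FPKM for Lin28b, 67.9 and 100.3 FPKM for Trim71, and 25.5 and 39.1 FPKM for Hmga2, the last within or near the range of the 7 libraries and far below EpiSCs. Hmga1 was highest in these 2 lines (1843 and 1409 FPKM). Myc was at 37.9 and 36.4 FPKM.

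Beside the 10 genes stand those that make and remove let-7. Of 15 genes for its processing and turnover, 1 was higher in EpiLCs than in mESCs (Xpo5, the nuclear exporter of microRNA precursors, 48.5 against 30.1 FPKM), 2 in fPSCs (Ago1, 23.3 against 13.3 FPKM, and Hnrnpa1, 854.7 against 513.4 FPKM) and 0 in EpiSCs, with 0 lower in each. Over all genes, 12.2%, 17.3% and 23.1% were higher in these comparisons. Against EpiSCs, 2 were higher in fPSCs (Hnrnpa1 and Ran), and against EpiLCs 1 (Ago1), where 13.3% and 5.66% of all genes were higher. Between fPSC batches, 2 were higher and 4 lower in batch 2, where 20.8% of all genes were higher and 8.93% lower. The lower ones were led by Khsrp, a let-7 processing factor (57.8 against 138.1 FPKM), and Ago2, a silencing effector (15.4 against 36.4 FPKM).

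Of 20 other genes known as let-7 targets, 4 were higher and 2 lower in EpiLCs than in mESCs (median log2 fold change 0.41, all genes -0.06), 11 higher and 1 lower in fPSCs (0.76, all genes -0.04), and 13 higher and 1 lower in EpiSCs (1.15, all genes -0.09). Over all genes, 12.2%, 17.3% and 23.1% were higher in these comparisons, and 17.4%, 23.0% and 24.7% lower. Ccnd2, a G1 cyclin, was at 15.4 FPKM in fPSCs, 42.7 FPKM in EpiSCs and 0.12 FPKM in mESCs. Igf2, a growth factor whose mRNA gave the Igf2bp family its name, was at 40.2 FPKM in EpiSCs, 0.069 FPKM in mESCs and 3.98 FPKM in fPSCs. Between fPSCs and EpiSCs 7 of the 20 were lower and 0 higher (median -0.42, all genes 0.02), where 19% and 13.3% of all genes were. The lower ones included Igf2 (log2 fold change -3.18) and Ccnd1, another G1 cyclin (71.0 against 327.3 FPKM). These differences too stood beside the fibroblast gene sums of the EpiSC libraries. Against EpiLCs, 4 were higher and 2 lower in fPSCs (5.66% and 8.15% of all genes), Ccnd2 and Cdk6 leading the higher ones. Both also differed between the fPSC batches. Ccnd2 averaged 8.01 FPKM in batch 2 and 25.3 FPKM in batch 1, and Cdk6 17.1 and 37.8 FPKM.

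MYC partners and targets were counted in the same way. In the MYC and MAX network (11 genes) 1 was higher and 1 lower in EpiLCs than in mESCs, 1 higher and 4 lower in fPSCs, and 3 higher and 2 lower in EpiSCs, where over all genes 12.2% and 17.4%, 17.3% and 23.0%, and 23.1% and 24.7% were higher and lower. Mga, a MAX partner that represses MYC and E2F targets, fell from 22.1 FPKM in mESCs to 8.65 FPKM in fPSCs and 4.55 FPKM in EpiSCs. Of 20 genes known as MYC targets, many of them in ribosome, nucleotide and polyamine synthesis, 4 were higher and 0 lower in EpiLCs than in mESCs, and 6 higher and 1 lower in fPSCs. In EpiSCs 1 was higher and 8 lower (median -0.57, all genes -0.09), although Myc itself was higher there. Odc1, the entry enzyme of polyamine synthesis, was the one that rose in EpiSCs (474.6 against 129.5 FPKM), and it rose in EpiLCs (503.3 FPKM) and fPSCs (322.4 FPKM) as well. Npm1, a nucleolar chaperone, was at 440.1 FPKM in EpiSCs and 1280 FPKM in mESCs. Between fPSCs and EpiSCs 10 of the 20 were higher and 0 lower (median 0.60, all genes 0.02), where 13.3% and 19% of all genes were. The higher ones were led by Npm1 (1370 FPKM in fPSCs, log2 fold change 1.59) and Ldha (1.47). The differences of MYC targets from EpiSCs also stood beside the fibroblast gene sums of the EpiSC libraries. The part of the feeders in them was not tested.

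Across the 19 libraries, the members fell into patterns that can be described by Pearson's r of log2(FPKM + 1), over points that share groups and batches. Trim71 and Igf2bp1 were the closest pair (r = 0.94), and Igf2bp3 followed both (0.89 with Trim71 and 0.90 with Igf2bp1). Lin28a was close to Myc (0.91) and to Hmga1 (0.86), and Lin28b to Myc (0.80). Among the 7823 other genes at 10 FPKM or more in some library, the 3 nearest were Setd7, Lsr and Rhobtb3 for Lin28a (0.98 to 0.96) and Sertad4, Arxes1 and Nudt11 for Lin28b (all 0.93), and Igsf9 and Tmem59l were among the 3 nearest to Myc (both 0.95). The nearest were Cplx2, Samd14 and Wls for Hmga2 (0.97 to 0.95) and Nol4l, Sgpl1 and Afap1 for Igf2bp2 (0.93 to 0.89). Sf3a1 and Ubap2 stood among the 3 nearest of both Trim71 and Igf2bp1, with Crebbp the other one of Trim71 and Tbc1d22b of Igf2bp1 (all 0.95 to 0.97), and Kdm6b, Ago2 and Ugcg were nearest to Igf2bp3 (0.96 to 0.94). Hmga1 (Ncs1, Ift27 and Tubb5, 0.91 to 0.89) and Mycn (Gemin4, Ahdc1 and Polr1b, 0.86 to 0.83) had weaker neighbours.

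Single cells of 4 fPSC clones showed how widely the members were detected. Cells were picked by hand and prepared by Smart-seq2. The labels name 192 cells, the tables hold 182, and 181 with at least 500 detected genes were used (46, 45, 46 and 44 in clones 1 to 4, with median totals of 19080, 32360, 33880 and 22630 counts). Igf2bp1 had counts in 171 of the 181 cells (94.5%) and Igf2bp3 in 150 (82.9%). Lin28b had counts in 134 (74.0%), Trim71 in 130 (71.8%), Lin28a in 125 (69.1%) and Hmga2 in 117 (64.6%). Myc (77, 42.5%), Igf2bp2 (72, 39.8%), Mycn (67, 37.0%) and Hmga1 (55, 30.4%) were found in fewer. For scale, Pou5f1, which pluripotent cells express as a rule, had counts in 17 cells (9.39%) and Dnmt3b in 99.4%, so a cell without a count need not lack the RNA. Col1a1, a fibroblast collagen gene, had counts in 53 of the same cells (29.3%), so that the share for Hmga1 was at the level of a gene these cells should lack. After thinning 167 cells to 5000 counts (14 cells were shallower), the shares were 88% for Igf2bp1, 50.9% for Lin28b, 42.5% for Hmga2, 37.7% for Lin28a, 23.4% for Igf2bp2, 18.6% for Myc and for Mycn, and 7.78% for Hmga1, against 5.39% for Col1a1.

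The clones were closer to each other in some members than in others. Counts were summed over the cells of a clone and scaled to a common total (CPM), which is not per length, so they were compared only within a gene. Igf2bp3 ranged from 329.8 to 382.7, Trim71 from 176.8 to 215.4, Lin28a from 128.6 to 186.6 and Igf2bp1 from 543.8 to 662.7 CPM over the 4 clones. Myc ranged from 74.9 to 112.6 and Mycn from 60.9 to 91.9 CPM. Igf2bp2 was at 135.2 in clone 1 and 55.9 to 72.5 in clones 2 to 4. Hmga2 was at 135.9, 150.8 and 167.0 in clones 1 to 3 and at 323.8 (exact Poisson 95% interval 301.6–347.1) in clone 4. Lin28b went from 157.2 (137.8–178.6) in clone 1 to 316.4 (297.3–336.4) in clone 2, and Hmga1 from 7.33 (3.66–13.1) in clone 1 to 32.3 (27.3–37.8) in clone 3. The intervals cover counting error only, and there is 1 culture per clone, so differences between clones were not tested against replicates. Single cells also weighed on the sums. In clone 3, 1 cell held 38.8% of the Hmga1 counts. In clone 4, 1 cell held 48.2% of the Igf2bp2 counts, and the top cell for Hmga2 held 19.9%. The primer numbers of clones 1 and 3 coincided in 44 cases and those of clones 2 and 4 in 42, but no cells held identical counts. Per cell, a median of 6, 7, 6 and 6 of the 10 genes had a count in clones 1 to 4.

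**Figure D4:**
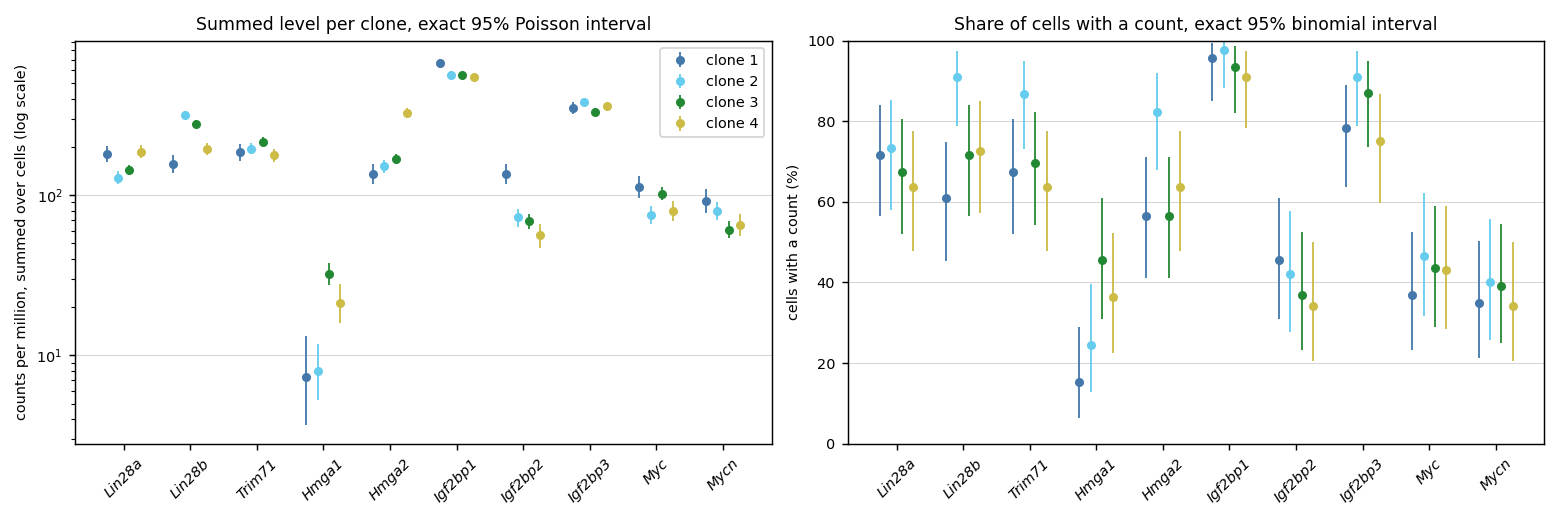
CPM summed over the cells of each of the 4 fPSC clones (log axis, points with exact Poisson 95% intervals) and share of cells with at least 1 count (percent, with exact binomial 95% intervals) for the 10 genes. Igf2bp1 is found in over 90% of the cells of each clone, and Hmga2 in clone 4 lies at 323.8, above the 135.9 to 167.0 of the other clones.

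The chromatin of the 10 promoters in fPSCs at P10 was read from 1 deposited track for each mark, with no spread between replicates. Mean signal was taken within 1000 bp of the annotated start site (NCBIM37) and ranked among 22350 protein-coding promoters. H3K4me3, the mark of active and poised promoters, was above the median of 2.61 RPKM at all 10 genes. It was 9.76 RPKM at Lin28a (percentile 95.8), 8.46 at Mycn (92.2), 7.78 at Igf2bp1 (90) and 6.03 at Myc (80.7), and between 3.05 and 4.04 at Trim71, Lin28b, Hmga2, Igf2bp3, Igf2bp2 and Hmga1. Much of this signal lay beside the start: within 5000 bp, H3K4me3 stood at percentile 89.5 or higher at 9 of the 10 genes and at 68.1 at Lin28b. H3K27me3, the Polycomb mark, was above its median of 0.289 RPKM at Igf2bp2 (1.29 RPKM, percentile 86.7), Lin28b (0.774, 77.0) and Hmga2 (0.611, 70.8) and below it at the other 7. These 3 genes, with both marks over their medians, compare with 20.4% of all promoters. At the start of the long Lin28b transcripts (chromosome 10, position 45190007), H3K4me3 was 11.6 RPKM (percentile 98.4) and H3K27me3 0.128 RPKM (percentile 25), so the annotated outermost start decides the Lin28b value. The methylated fraction was at or below 0.0822 at all 10 start sites, against a median of 0.358, and 0.0 at Lin28a, Igf2bp1 and Myc. The read coverage behind these fractions is unknown.

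**Figure D5:**
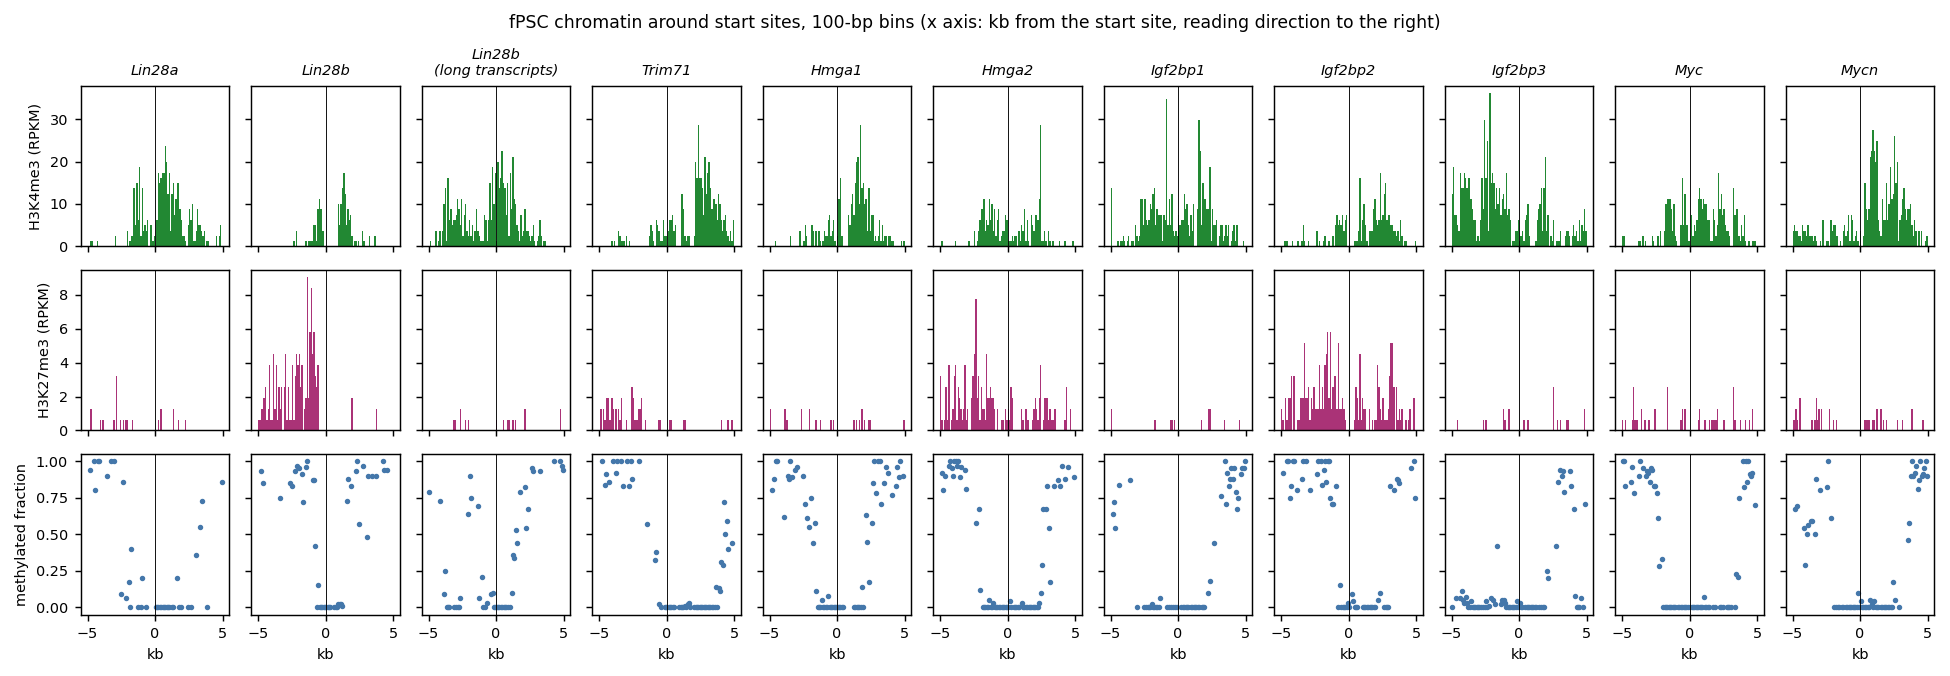
H3K4me3 and H3K27me3 (RPKM, bars) and methylated fraction (points) in fPSCs in bins of 100 bp by distance from the start site (kb), 1 row for each measure and 1 column a gene, with a further column for the start of the long Lin28b transcripts. Within 1000 bp of the start, Lin28a, Mycn and Igf2bp1 have the most H3K4me3 of the 10 annotated starts, while Igf2bp2, Lin28b and Hmga2 hold H3K27me3 above the promoter median of 0.289 RPKM.

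The E-box CACGTG, which reads the same on both strands, is a sequence bound by MYC and MAX. The promoter windows of RefSeq (GRCm38.p6), 300 bases around each start site, were searched for it. Of the 10 genes, 8 had an entry (not Igf2bp1 or Myc), and 2 of these, Lin28b and Igf2bp3, held the letters, where 7.15% of 32851 promoters did. The stretches are shown on the transcript strand, with the E-box in capitals.
Lin28b: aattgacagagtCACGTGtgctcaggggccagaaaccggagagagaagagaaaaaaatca
Igf2bp3: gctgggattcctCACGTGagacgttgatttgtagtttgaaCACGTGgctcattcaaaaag
They lie at chr10:45470203-45470262 (minus strand, match at -49 from the start site) and chr6:49214930-49214989 (minus strand, 2 matches, the first at -23). A match says nothing on its own about binding.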

How the data were processed

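The authors aligned bulk RNA-seq reads with TopHat2 2.1.1 and deposited FPKM from Cufflinks 2.1.1 (mm9), 1 table for 19 libraries. Of its 23608 entries, 4 were left out here. Low FPKM values did not fall on whole-read steps, so depth was not recovered and no count test was run. For single cells the authors deposited counts per gene, and it is not stated in the sources used here whether they are reads or molecules. ChIP-seq tracks were deposited as RPKM and methylation as the fraction of methylated cytosines in bins, made by the authors with Bowtie2 2.2.2 and BS-Seeker2, and it is not stated whether the file of each mark holds 1 replicate or both.

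The mESC, EpiLC, EpiSC and fPSC libraries (13) entered a single limma fit (3.58.1, R 4.3.3) with a trend on log2(FPKM + 1), restricted to genes reaching 1 FPKM in 2 or more of them, and the 7 fPSC libraries entered another for the batches. Calls required 1.5-fold and p under 0.05 after Benjamini-Hochberg adjustment. The script was tested on simulated data. Single cells were thinned to 5000 counts where shares were compared. Promoter signal was read in 100 bp bins. The fit with the replicate number as a block, other pseudocounts (0.1), filters, scaling, left-out libraries and single batches were tried as alternatives.

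The members were taken by symbol, with no value used, but they and the lists were chosen with earlier results of these data known. Named were all 10 members. Of each other list and comparison, up to 2 genes a direction were eligible, those with the largest fold change at 10 FPKM or more among the genes called, and not each is printed. For each member, the 3 genes with the highest r were named. Some genes that this rule names are not reported here.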

Additional observations from a re-analysis of the deposited data

Results flagged for a closer look

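Among the 10 genes, values in groups of 4 to 10 samples (4 clones and 7 fPSC libraries, 20 groups in all) were checked for a highest or lowest value set apart from the rest by Dixon's 95% limit. Chance alone flags about 1 in 20 groups, and 2 were flagged, both in the single-cell clones. Hmga2 was at 323.8 CPM (counts summed per clone and scaled to a common total) in clone 4, against 135.9, 150.8 and 167.0 in clones 1 to 3. Igf2bp1 was at 662.7 CPM in clone 1 (exact Poisson 95% interval 622.2–705.2), against 563.7, 559.0 and 543.8 in clones 2 to 4. The share of cells with a count of Hmga2 was 63.6% in clone 4 and 56.5% to 82.2% in the others, and that of Igf2bp1 90.9% to 97.8% over the clones. None of the 7 fPSC libraries was flagged for any of the 10 genes.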

How the results depend on the processing

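Of the calls made, Lin28a, Lin28b and Myc in the 3 comparisons with mESCs, Hmga2 in its 4 calls, Hmga1 in EpiSCs against mESCs, Igf2bp2 in fPSCs against EpiSCs and the 5 batch calls were kept under every alternative run. Leaving out single libraries gave 3 to 4 called members in EpiLCs, 4 to 6 in fPSCs and 5 to 6 in EpiSCs against mESCs, 2 to 3 in fPSCs against EpiSCs, 1 in fPSCs against EpiLCs and 5 to 6 between batches. EpiLCs against mESCs gave 5 called members with only these groups fitted, and 7 with 3 groups of 2 alone, a fit chosen after seeing the data. Adding the replicate number as a block to that fit also gave 7. In EpiSCs against mESCs all 3 of these fits gave 9. The block rests on no pairing: deviations of same-numbered libraries had r = 0.21, -0.20 and -0.14 over 12185 genes. With batch 1 libraries only, fPSCs had 9 called members against mESCs and 5 against EpiLCs. Batch 2 libraries only gave 3 against EpiLCs and 7 against EpiSCs, and CMT P11 alone as batch 2 gave 8. Lin28b in fPSCs against EpiSCs lost its call in 8 of 18 alternatives (log2 fold change 0.65 to 1.63, adjusted p 0.0125 to 0.425).

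Signs changed in members not called in the fit reported above. With upper-quartile scaling, Trim71 in fPSCs against EpiLCs was -0.0747 in place of 0.02. With batch 2 libraries only, fPSCs against EpiLCs gave -0.74 for Trim71, -0.055 for Igf2bp3 and -0.015 for Lin28a, and fPSCs against mESCs gave -0.011 for Igf2bp1, -0.042 for Igf2bp3 and -0.35 for Trim71. With batch 1 libraries only, Igf2bp1 (0.80, called) and Myc (0.25) changed against EpiLCs, and Igf2bp1 (0.16), Lin28a (0.30) and Trim71 (0.19) against EpiSCs. Igf2bp1 in fPSCs against EpiLCs was 0.065 with the epiblast-derived lines added. Leaving out single libraries gave ranges that crossed 0. In fPSCs against EpiLCs they were -0.63 to 0.66 for Trim71, -0.39 to 0.10 for Igf2bp1 and -0.012 to 0.46 for Igf2bp3, with the ends set by the EpiLC libraries. In EpiLCs against mESCs they were -0.70 to 0.32 for Hmga2, -0.22 to 0.25 for Igf2bp3 and -0.26 to 1.03 for Trim71, and in EpiSCs against mESCs -0.0048 to 0.36 for Mycn. The cause was not tested.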
